A study of Mus musculus with 12 samples.

Results

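The muscarinic acetylcholine receptors are the G protein-coupled receptors for acetylcholine, and their transcripts were followed here in the mouse striatum. The members were the rows of the gene count table with the symbols Chrm1, Chrm2, Chrm3, Chrm4 and Chrm5, 5 of 24421 genes. RNA had been sequenced from the bilateral striatum of male C57BL/6J mice, an inbred strain, in 12 libraries. A group of 6 libraries came from mice assigned to saline and a group of 6 from mice assigned to varenicline at 2 mg/kg, a partial agonist of nicotinic, not muscarinic, acetylcholine receptors that is used as a smoking cessation drug. All mice of both groups had access to 20% ethanol for 2 h sessions in 3 cycles of the Drinking-in-the-Dark procedure. Saline was injected before drinking in the first cycle, and the assigned injection came 30 min before a session in each of the other 2 cycles. The sources used here do not give age or say whether a library came from 1 mouse, so the p-values cover only the spread among these libraries, which may be technical. Libraries are numbered within a group in order of deposition only.

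As background, the receptors are classed by the G protein they use. M1, M3 and M5, encoded by Chrm1, Chrm3 and Chrm5, couple to Gq and activate phospholipase C, whereas M2 and M4, encoded by Chrm2 and Chrm4, couple to Gi/o, which inhibits adenylyl cyclase and opens inwardly rectifying potassium channels. In the striatum M1 is found in projection neurons of both output pathways and M4 is enriched in those of the direct pathway. M2 is known as an autoreceptor of cholinergic interneurons, which supply most striatal acetylcholine, M3 is prominent in the cortex, and M5 is best known from midbrain dopamine neurons.

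Chrm3 was lower in every varenicline library than in any saline library, as were 0.33% of all tested genes. Its log2 fold change (varenicline minus saline) was -0.69 ± 0.168 (SE, 6 libraries per group). Chrm2 was lower on average (-0.40 ± 0.136), Chrm4 was higher on average (0.22 ± 0.095), and Chrm1 differed by -0.099 ± 0.066. Chrm5 was barely detected. Markers of cortical neurons were also lower on average in the varenicline libraries, and with those markers in the fit the value for Chrm3 was -0.18 ± 0.114. None of the 4 members with enough counts to test passed an adjusted p of 0.05 in edgeR, where 0 of 15148 genes did (0%) and 2558 genes (16.9%) had an unadjusted p under 0.05. Log2 fold changes were below 0 for 3 of the 4, against 47.7% of all tested genes. At the unadjusted threshold 2 members were lower, against 9.63% of all tested genes, and 1 was higher, against 7.26%. Values below are CPM, counts scaled to a library total of 1e+06 after correction between libraries by TMM, the trimmed mean of M-values, unless a length-scaled unit is named, and fold changes are log2, varenicline minus saline, from edgeR's quasi-likelihood test.

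**Figure D1:**
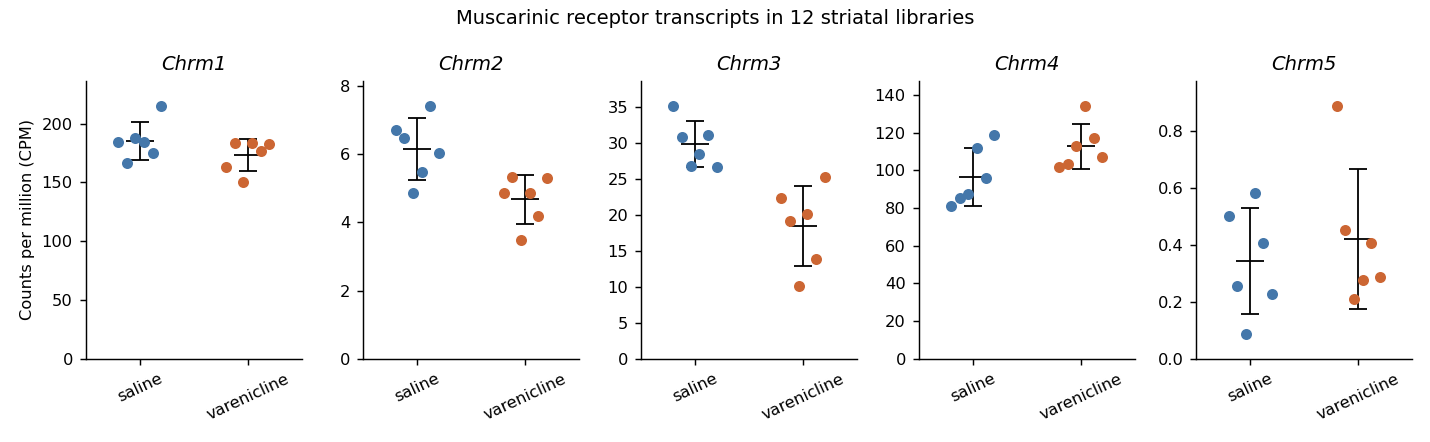
Level of each receptor gene (CPM, vertical axis), with 1 point per library, a short bar for the mean and error bars of 1 SD (6 libraries per group); each panel has its own axis from 0. For Chrm3 the highest varenicline library, at 25.3 CPM, sits below the lowest saline library, at 26.6 CPM, while the groups overlap for the other 4 genes.

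Among the Gq-coupled receptors, Chrm1 (ENSMUSG00000032773, chromosome 19, 8664005 to 8683602 on mm10, plus strand, 3 exons) encodes M1, the main postsynaptic muscarinic receptor of the forebrain. Its level was lowest at 167 CPM, had a median of 184 CPM and reached 215 CPM in the saline libraries. In the varenicline libraries the lowest, median and highest values were 150.0, 179 and 184 CPM. The groups overlapped, with 4 of the 6 varenicline libraries inside the saline range and 2 below it. The means were 185 ± 16.3 CPM (saline) and 173 ± 13.8 CPM (varenicline; SD, n = 6 each), a log2 fold change of -0.099 (SE 0.066, edgeR unadjusted p = 0.155, adjusted p = 0.464). In the annotation, 329 bases of the Chrm1 exons, 5.23% of their length, overlap Gm22820 on the opposite strand.

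Chrm3 (ENSMUSG00000046159, chromosome 13, 9876613 to 10360803, minus strand, 5 exons) encodes M3, the other Gq-coupled receptor with appreciable counts. Saline libraries ranged from 26.6 to 35.0 CPM with a median of 29.6 CPM. Varenicline libraries ranged from 10.05 to 25.3 CPM with a median of 19.6 CPM. All 6 varenicline libraries thus lay below all 6 saline libraries, a pattern shown by 50 tested genes in that direction (0.33%). The lowest values were those of varenicline 3 and varenicline 5, at 10.05 and 13.8 CPM, and the highest of the group was varenicline 6. The means were 29.8 ± 3.22 and 18.4 ± 5.59 CPM (SD, n = 6 each), and the coefficient of variation was 10.8% with saline and 30.3% with varenicline. The log2 fold change was -0.69 (SE 0.168, edgeR unadjusted p = 0.000837, adjusted p = 0.132), which ranked Chrm3 at place 92 of 15148 by p. DESeq2 gave Chrm3 an adjusted p of 0.0102 and called 2.62% of the 15148 genes, of which 2643 had no adjusted p. Limma-voom with sample weights gave Chrm3 an adjusted p of 0.00242 and called 13.9%. Without varenicline 6 the log2 fold change was -0.80 and the edgeR adjusted p 0.00472, in a fit that called 10.7% of genes. Limma on the Cuffnorm values and edgeR without varenicline 2 called 0.0155% and 0.0263% of genes, and no member.

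Chrm5 (ENSMUSG00000074939, chromosome 2, 112479072 to 112480817, minus strand, counted over 1 exon) encodes M5, and had 93 counts over all 12 libraries. Saline libraries held from 2 to 16 counts with a median of 7, and varenicline libraries from 5 to 12 counts with a median of 6.5. The groups overlapped, with 5 of 6 varenicline libraries inside the saline range in CPM. The means were 0.342 ± 0.185 and 0.419 ± 0.245 CPM (SD, n = 6 each), close to the 0.107 to 0.225 CPM that 3 counts represent at these depths. The filter on low counts left Chrm5 out. Fitted without that filter, Chrm5 had a log2 fold change of 0.26 (SE 0.468; adjusted p = 0.827 in edgeR), and of -0.051 without varenicline 1, so a difference was not detectable at this depth.

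Of the Gi/o-coupled receptors, Chrm2 (ENSMUSG00000045613, chromosome 6, 36388084 to 36524774, plus strand, 3 exons) was the scarcer, with 66 to 183 counts per library. Saline libraries ranged from 4.87 to 7.40 CPM with a median of 6.25 CPM. Varenicline libraries ranged from 3.47 to 5.34 CPM with a median of 4.87 CPM. The groups overlapped only through the lowest saline library, saline 3, since the other 5 saline libraries lay above every varenicline library. The means were 6.16 ± 0.906 and 4.67 ± 0.722 CPM (SD, n = 6 each), a log2 fold change of -0.40 (SE 0.136, edgeR unadjusted p = 0.0100, adjusted p = 0.178). In the annotation, 142 bases of its exons, 6.97% of their length, overlap 9330158H04Rik on the opposite strand. Whether strand was used in counting is not given, so reads of the pair could not be separated there, but 9330158H04Rik held only 139 counts over all libraries against 1400 for Chrm2.

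Chrm4 (ENSMUSG00000040495, chromosome 2, 91922189 to 91929829, plus strand, 2 exons) encodes M4, the receptor through which acetylcholine opposes dopamine D1 signalling in direct pathway neurons. Saline libraries ranged from 80.8 to 118 CPM with a median of 91.5 CPM. Varenicline libraries ranged from 101 to 134 CPM with a median of 110 CPM. Saline 1, 2, 3 and 5 lay below every varenicline library, whereas saline 4 and saline 6 lay among them, and 1 varenicline library, varenicline 4, was above the saline range. The means were 96.5 ± 15.3 and 113 ± 11.98 CPM (SD, n = 6 each), a log2 fold change of 0.22 (SE 0.095, edgeR unadjusted p = 0.0338, adjusted p = 0.256). Limma-voom with sample weights gave Chrm4 a log2 fold change of 0.37 and an adjusted p of 0.0126, in the fit that called 13.9% of genes, and the other 24 of 25 alternatives did not call it. Its exons overlap the gene Mdk on the opposite strand over 25 bases, 0.903% of their length.

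Because the genes differ in exon length, their levels were compared as TPM, counts divided by the exon length in the table and rescaled to the same total in every library. The order was Chrm4, Chrm1, Chrm3, Chrm2 and Chrm5, with saline means of 101 ± 14.9, 85.6 ± 6.76, 27.3 ± 3.09, 8.78 ± 1.30 and 0.568 ± 0.308 TPM (SD, n = 6). With varenicline the means were 120 ± 12.8, 81.1 ± 5.95, 17.1 ± 5.14, 6.75 ± 1.01 and 0.707 ± 0.416 TPM in the same order (SD, n = 6). Chrm4 and Chrm1 overlapped in their ranges, and Chrm4 was the higher in 11 of 12 libraries, all but saline 1. The ranges of Chrm3 and Chrm2 also overlapped across libraries, although Chrm3 was the higher in all 12. Chrm1 and Chrm3 did not overlap, nor did Chrm2 and Chrm5. In the deposited FPKM values Chrm4 was above Chrm1 in all 12 libraries.

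The summed level of the 5 receptors ran from 205 to 252 TPM in saline libraries (mean 223 ± 17.3) and from 207 to 254 TPM in varenicline libraries (mean 225 ± 16.3; SD, n = 6 each), so the ranges nearly coincided. Within that sum Chrm4 made up 45.1 ± 3.49% with saline and 53.1 ± 3.88% with varenicline, and Chrm3 12.3 ± 2.03% and 7.57 ± 2.20% (SD, n = 6 each). Chrm1 held 38.4 ± 2.08% and 35.99 ± 1.82%, and Chrm2 3.96 ± 0.707% and 2.99 ± 0.424%. The summed level of the Gi/o-coupled pair divided by that of the Gq-coupled genes ran from 0.798 to 1.12 in saline libraries and from 1.11 to 1.56 in varenicline libraries. The ranges met at saline 4, with 1.115, and varenicline 6, with 1.111. These shares were not tested, since they combine genes chosen with earlier results in view.

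**Figure D2:**
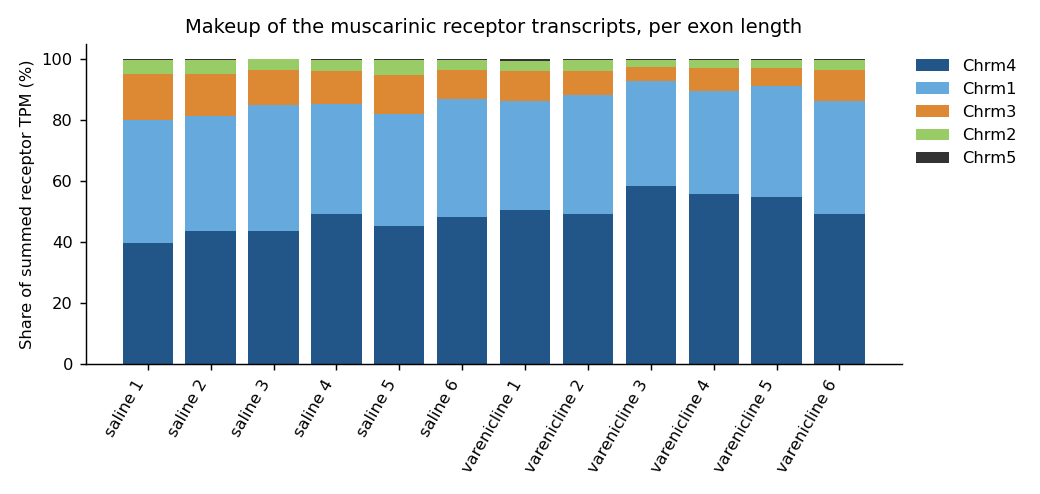
Stacked bars show the share of each receptor gene in the summed receptor TPM (percent, from 0 to 100) for each of the 12 libraries. Chrm4 takes from 39.9% to 49.4% in saline libraries and from 49.3% to 58.6% in varenicline libraries, while Chrm3 takes from 9.48% to 15.1% and from 4.55% to 10.2%.

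Ratios between members do not depend on how libraries are scaled. The ratio of Chrm4 to Chrm3, per exon length, ran from 2.64 in saline 1 to 5.10 in saline 6, and from 4.85 in varenicline 6 to 12.9 in varenicline 3. Only varenicline 6 lay inside the saline range of that ratio. On the log2 scale Chrm3 over Chrm4 averaged -1.88 ± 0.343 (saline) and -2.86 ± 0.544 (varenicline; SD, n = 6 each), the widest difference among the 6 pairs of the tested members. Chrm1 over Chrm3 averaged 1.65 ± 0.243 and 2.30 ± 0.424, and Chrm1 over Chrm4 -0.23 ± 0.173 and -0.56 ± 0.169. The groups overlapped for each of the 6 pairs.

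The sequence before the transcription start is shown for Chrm2, Chrm3 and Chrm4, the members with an unadjusted p under 0.05, to let their promoters be compared. Each run is the 250 bases before the start, 5′ to 3′ on the gene's strand, from RefSeq on GRCm38.p6, the assembly that mm10 names. Capitals mark GGGCGG on either strand, the GC box bound by Sp1 family factors.
Chrm2 (chr6:36387834-36388083, plus strand): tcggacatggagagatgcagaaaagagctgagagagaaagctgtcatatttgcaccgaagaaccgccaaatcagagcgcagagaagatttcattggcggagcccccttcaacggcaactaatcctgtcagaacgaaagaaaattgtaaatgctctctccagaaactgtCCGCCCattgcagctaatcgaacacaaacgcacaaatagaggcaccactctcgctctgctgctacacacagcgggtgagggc
Chrm3 (chr13:10360804-10361053, minus strand): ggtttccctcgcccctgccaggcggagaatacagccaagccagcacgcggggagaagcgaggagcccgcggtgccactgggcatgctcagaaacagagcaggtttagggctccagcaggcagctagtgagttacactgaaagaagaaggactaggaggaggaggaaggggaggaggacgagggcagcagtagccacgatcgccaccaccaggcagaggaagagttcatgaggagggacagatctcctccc
Chrm4 (chr2:91921939-91922188, plus strand): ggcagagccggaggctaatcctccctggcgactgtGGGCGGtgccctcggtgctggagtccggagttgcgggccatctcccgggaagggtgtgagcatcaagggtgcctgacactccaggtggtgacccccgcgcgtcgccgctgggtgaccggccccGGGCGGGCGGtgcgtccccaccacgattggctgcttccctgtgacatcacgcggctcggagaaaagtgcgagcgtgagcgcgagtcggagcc
The GC content was 50% for Chrm2, 61.2% for Chrm3 and 70% for Chrm4, against a median of 52.4% over 32851 promoter windows of the same length. CG dinucleotides numbered 12, 10 and 26. GGGCGG matched 1 time in Chrm2, not in Chrm3 and 3 times in Chrm4, with 2 of those 3 overlapping each other, and 32.7% of all windows held it. The cyclic AMP response element TGACGTCA, held by 1.55% of all windows on either strand, was in none of the 3. The TATA box letters TATAAA, held by 12.4%, were in none of them either. The same was true of the E box CACGTG, held by 6.02%.

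Marker genes of the dissected tissue were read beside the receptors. The marker lists were chosen with earlier results of these data known. Their p-values are therefore descriptive and give no independent test of a group difference. The 11 markers shared by striatal projection neurons were present in every library, at a summed 7040 to 10978 CPM with saline and 7551 to 12275 CPM with varenicline. The 11 markers of cortical excitatory neurons, all tested, were all lower in the varenicline group, with unadjusted p under 0.05 for 10 and 0 past the adjusted threshold. Of all tested genes 47.7% were lower, and 9.63% were lower at that unadjusted p. The summed level of the cortical markers ran from 635 to 1215 CPM in saline libraries and from 126 to 1040 CPM in varenicline libraries, and no marker was at 0 in any library. The cortical score, the mean log2 CPM of these markers, was 5.12 ± 0.355 (saline) and 3.79 ± 1.03 (varenicline; SD, n = 6 each; two-sided exact permutation p = 0.0173, and 0.0693 after adjustment over the 12 scores). Varenicline 6 had 5.40 and so lay within the 4.69 to 5.55 of the saline libraries. Septal and pallidal markers, 6 in all, were each higher with an unadjusted p under 0.05, as were 7.26% of all tested genes. The septal and pallidal score was 1.90 ± 0.262 and 2.70 ± 0.717 (n = 6 each; exact permutation p = 0.00866, adjusted p = 0.0519). The 7 direct pathway markers had 6 higher (score 5.72 ± 0.169 and 5.93 ± 0.232, n = 6 each; exact permutation p = 0.117), and the 7 tested markers of cholinergic interneurons were all higher (3.35 ± 0.219 and 3.61 ± 0.207; exact permutation p = 0.0584). Of all 15148 tested genes 7921 were higher. The score of midbrain dopamine neurons, cells known for M5, was 1.57 ± 0.293 and 2.22 ± 0.424 (n = 6 each; exact permutation p = 0.00866, adjusted p = 0.0519). It rested on 3 of 5 markers, since Slc6a3 and Pitx3 held 37 and 6 counts in all, with libraries at 0, and the 5 summed to at most 26.3 CPM. The other 7 scores had an exact permutation p from 0.0433 to 0.764, none under 0.115 after adjustment. In bulk tissue, fewer cells of a type and less RNA per cell cannot be told apart. Library totals ran from 13340420 to 27917715 counts.

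Chrm3 followed the cortical score most closely. Over the 12 libraries Pearson's r between the score and log2 CPM of Chrm3 was 0.96 and Spearman's rho 0.86 (permutation p = 2.0e-05 and 0.00072, adjusted p = 2.4e-04 and 0.00858 over the 12 relations of 4 members with 3 scores). Permutations over the 12 libraries ignored group, so pooled p-values also reflect differences between the groups in score and receptor level. Without varenicline 3 and varenicline 5, the libraries farthest from the median score, r for Chrm3 was 0.88. Within the saline group r was 0.81 (n = 6, exact permutation p = 0.0514, adjusted p = 0.206), and within the varenicline group it was 0.93 (n = 6, exact permutation p = 0.00556, adjusted p = 0.0667). Chrm2 had r = 0.85 and rho = 0.76 over all libraries (permutation p = 2.9e-04 and 0.00559, adjusted p = 0.00174 and 0.0163), and r = 0.63 without the same 2 libraries. Within groups r for Chrm2 was 0.52 with saline and 0.86 with varenicline (n = 6 each, exact permutation p = 0.283 and 0.0236, adjusted p = 0.309 and 0.142).

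Chrm4 ran the opposite way, with r = -0.65 and rho = -0.69 (permutation p = 0.0223 and 0.0156, adjusted p = 0.0445 and 0.0268), and r = -0.72 without the 2 farthest libraries. Within the saline group alone r for Chrm4 was -0.93, and within the varenicline group -0.37 (n = 6 each, exact permutation p = 0.0139 and 0.465, adjusted p = 0.167 and 0.663). Chrm1 had r = 0.43 and rho = 0.31 (permutation p = 0.173 and 0.319, adjusted p = 0.207 and 0.383), and r was -0.033 without the 2 farthest libraries. Its sign differed between the groups, with -0.62 for saline and 0.56 for varenicline (n = 6 each, exact permutation p = 0.197 and 0.249). No within-group relation with the cortical, direct pathway or cholinergic interneuron score, the 3 examined, passed after adjustment.

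**Figure D3:**
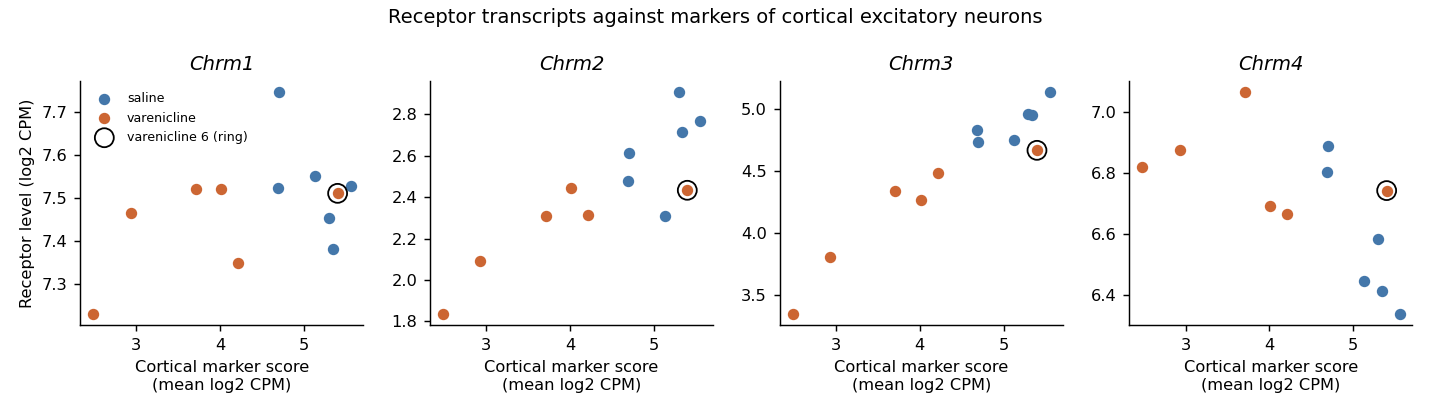
The level of each receptor (log2 CPM, vertical axis, own range per panel) is plotted against the score of cortical excitatory neuron markers (mean log2 CPM) with 1 point per library, and a ring marks varenicline 6. Chrm3 is higher where the score is higher (r = 0.96), Chrm4 is lower there (r = -0.65), and varenicline 6 has a score of 5.40 among the saline libraries.

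Chrm4 also followed other scores. With the cholinergic interneuron score r was 0.78 and rho 0.78 (permutation p = 0.00328 and 0.00432, adjusted p = 0.0131 and 0.0163), and 0.60 without saline 1 and saline 2. Within groups it was 0.87 with saline and 0.39 with varenicline (n = 6 each, exact permutation p = 0.0306 and 0.385, adjusted p = 0.183 and 0.6595). With the direct pathway score r for Chrm4 was 0.61 and rho 0.59 (permutation p = 0.0367 and 0.04945, adjusted p = 0.0550 and 0.0742). Without varenicline 6 and saline 1 it was 0.66, and within groups 0.67 and 0.33 (n = 6 each, exact permutation p = 0.153 and 0.497). Correlations of the members with the indirect pathway score were not computed. Whether Chrm4 follows direct pathway markers in particular was therefore not tested. The indirect pathway score and log2 CPM of Chrm4 put the saline libraries in the same order. Both were lowest in saline 1 (6.66 and 6.34) and highest in saline 6 (7.45 and 6.89). In the varenicline group, varenicline 4 (7.37 and 7.07) and varenicline 5 (7.46 and 6.87) were highest on both. The lowest library was varenicline 6 for that score (6.87) and varenicline 1 for Chrm4 (6.67). Chrm3 and Chrm2 ran the opposite way to the cholinergic score, with r of -0.72 and -0.70 (permutation p = 0.00487 and 0.0100, adjusted p = 0.0146 and 0.0241), and of -0.62 and -0.58 without saline 1 and saline 2. Within groups these r values were -0.75 and -0.60 for Chrm3, and -0.59 and -0.47 for Chrm2. With the direct pathway score r was -0.62 for Chrm3 and -0.60 for Chrm2 (adjusted permutation p = 0.0476 and 0.0550).

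The receptor differences were then fitted with these scores as covariates. With the cortical score the log2 fold change of Chrm3 was -0.18 (SE 0.114, edgeR adjusted p = 0.997), that of Chrm2 -0.12 (SE 0.165), that of Chrm4 0.078 (SE 0.116) and that of Chrm1 -0.057 (SE 0.089), in a fit that called 0.0792% of genes and no member. With that score and without varenicline 6 the values were 0.058 (SE 0.146) for Chrm3, 0.084 (SE 0.233) for Chrm2 and -0.059 (SE 0.164) for Chrm4. With the direct pathway score Chrm3 stood at -0.55 (SE 0.167), Chrm2 at -0.30 and Chrm4 at 0.14, none past the threshold. With the septal and pallidal score Chrm3 stood at -0.57 (SE 0.219), Chrm2 at -0.34, Chrm4 at 0.27 and Chrm1 at 0.0047 (SE 0.076). Since the cortical score was itself lower on average in the varenicline group, the share of a difference that goes with the drug and the share that goes with tissue makeup cannot be told apart in these fits.

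**Figure D4:**
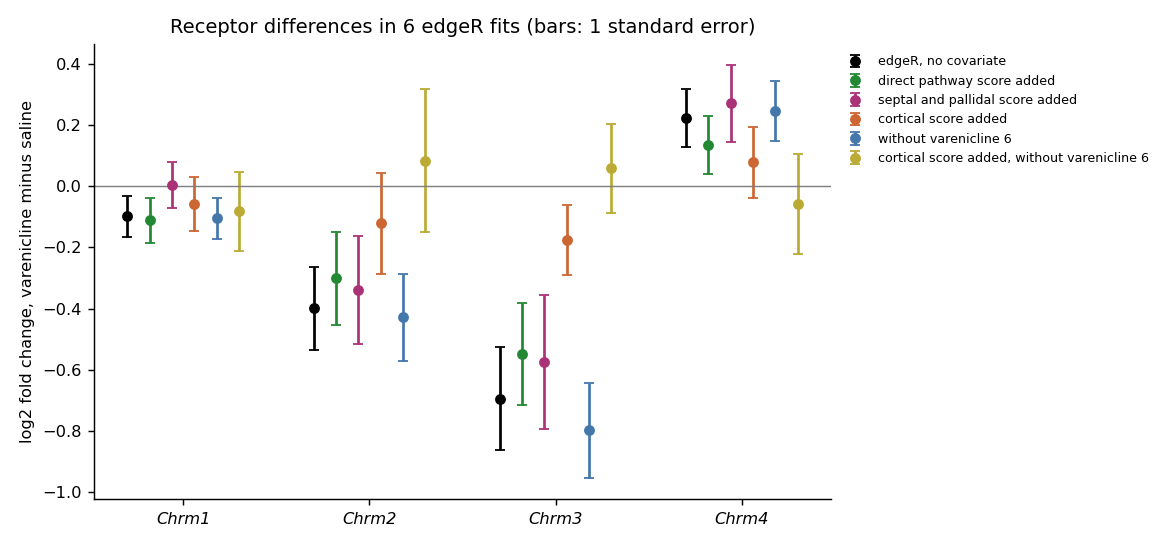
Points give the log2 fold change (varenicline minus saline) of 4 receptor genes in 6 edgeR fits, with bars of 1 standard error. Chrm3 stands at -0.69 without a covariate, at -0.18 with the cortical score and at 0.058 with that score and without varenicline 6, whereas Chrm1 stays between -0.11 and 0.0047.

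The genes most like each member were those with the highest Pearson r of log2 CPM over the 12 libraries among 11399 genes with a mean of at least 5 CPM. For Chrm3 they included Nr4a2, an orphan nuclear receptor, and Rxfp1, a relaxin receptor, with r of 0.98 and 0.97. With group means removed their r was 0.96 and 0.94. Their log2 fold changes were -1.25 and -1.39, neither past the threshold. For Chrm2 they were Rap1gds1, Rab11fip4 and Rpp25, with r of 0.97, 0.95 and 0.94. For Chrm1 they were Synpo, an actin-associated protein of dendritic spines, Cacng3, an AMPA receptor auxiliary subunit, and Gas7, with r of 0.91, 0.89 and 0.89. For Chrm4 they were Rnf207, Gdf10 and Lzts3, with r of 0.93 each. No gene was named for more than 1 member. Both genes of a pair were read in the same 12 libraries, which differ in depth and in marker levels.

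The genes around the receptors were taken from lists of acetylcholine handling, the Gq arm, the Gi/o arm and receptor regulators, 49 genes in all, of which 0 passed the adjusted threshold. Of the 8 acetylcholine handling genes 7 were higher, beside 7921 of all 15148 tested genes. Among those 7, 1 had an unadjusted p under 0.05, against 7.26% of all tested genes in that direction. The list had a median log2 fold change of 0.16 against 0.0074 over all tested genes. Its members Chat, Slc18a3 and Slc5a7 were also among the cholinergic interneuron markers above. Slc5a7, the choline transporter that limits acetylcholine synthesis, averaged 24.8 ± 3.93 and 32.4 ± 5.97 CPM (SD, n = 6 each; log2 fold change 0.38, edgeR adjusted p = 0.174). Bche, a cholinesterase, had 0.20 and Slc44a1, a choline transporter-like protein, 0.13. With the cortical score as a covariate the median of this list was -0.037.

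In the Gq arm 8 of 15 genes were higher and 7 lower, with a median of 0.029. At an unadjusted p under 0.05, 0 were higher and 2 lower, against 7.26% and 9.63% of all tested genes. Gnaq, the Gq alpha subunit itself, averaged 175 ± 13.9 and 161 ± 6.27 CPM (SD, n = 6 each; log2 fold change -0.12, edgeR adjusted p = 0.276), and Kcnq5, a subunit of the M-current potassium channel that muscarinic receptors close, had 0.13.

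In the Gi/o arm 12 of 14 genes were lower, against 47.7% of all tested genes. For 8 of the 12 the unadjusted p was under 0.05, as for 9.63% of all genes in that direction. The median of the list was -0.30. Gnaz, a G protein alpha subunit of the Gi family, averaged 44.6 ± 3.81 and 35.2 ± 4.94 CPM (SD, n = 6 each; log2 fold change -0.34, edgeR adjusted p = 0.135). Cacna1a, the pore of P/Q-type calcium channels, had -0.25. Kcnj9, a subunit of the potassium channels that M2 and M4 open, averaged 92.0 ± 17.3 and 57.4 ± 25.2 CPM (log2 fold change -0.68, edgeR adjusted p = 0.147). With the cortical score as a covariate the values were -0.16 for Gnaz, -0.17 for Cacna1a and -0.081 for Kcnj9, and the median of the list was -0.082 against -0.0020 over all genes. Among the 12 receptor regulators 6 were higher and 6 lower, with a median of -0.013. At an unadjusted p under 0.05, 2 were higher and 3 lower, beside the same 7.26% and 9.63% of all genes. Rgs2, which speeds the turn-off of Gq, averaged 81.2 ± 8.53 and 112 ± 11.4 CPM (SD, n = 6 each), with no overlap between the groups, as for 0.429% of all genes in that direction. Its log2 fold change was 0.46 with and without the cortical score (edgeR adjusted p = 0.0679 without it). Rgs7, a partner of Gnb5, had -0.18, and Adrbk1, the receptor kinase also called Grk2, had -0.33 without and 0.053 with that score.

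**Figure D5:**
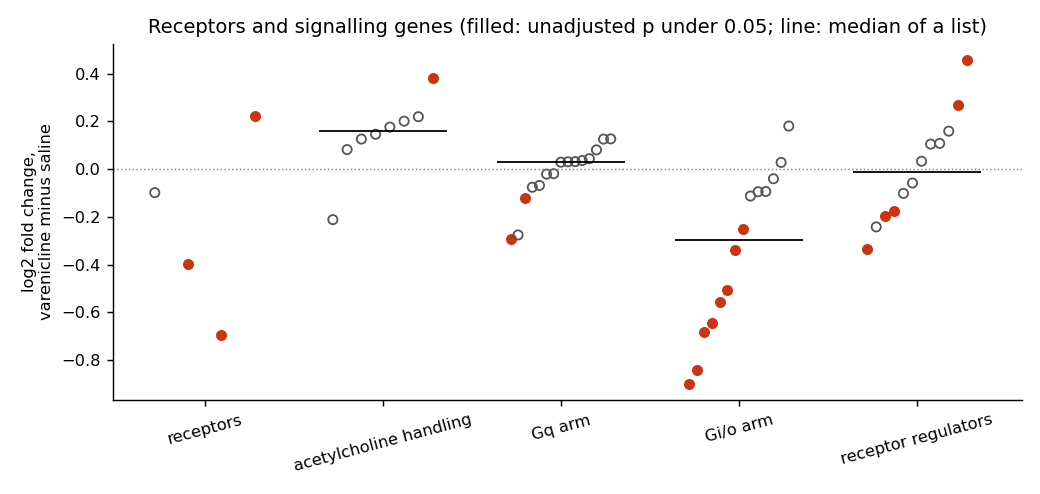
Each point is the log2 fold change (varenicline minus saline) of 1 gene, for the 4 tested receptors and 4 lists of signalling genes; filled points have an unadjusted edgeR p under 0.05 and lines mark list medians. The Gi/o arm has 8 filled points, all below 0, and a median of -0.30, while the Gq arm has a median of 0.029.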

How the data were processed

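RNA libraries had been made with the Illumina TruSeq kit and read as single reads of 150 nt, per the labels' protocols. The authors deposited whole-number gene counts, FPKM values and a signal of scaled counts from Cuffnorm, all on mm10, and the exon lengths used here are other values per the file headers. The submitters' processing notes name TopHat2, featureCounts, Cuffnorm, Cuffdiff, DESeq2, FastQC and Trimmomatic. Versions, the annotation and any strand setting are not given.

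The members and lists were chosen with earlier results of these data known. Genes kept by filterByExpr (15148) were scaled by TMM and tested with the quasi-likelihood test of edgeR 4.0.16 in R 4.3.3, comparing varenicline with saline. P-values were adjusted by Benjamini-Hochberg over those genes, with a threshold of 0.05. The standard error is the absolute log2 fold change divided by the root of F. Scores used log2 CPM with a prior count of 2 and exact permutation over 924 assignments, and pooled correlations 100000 resamples. Alternatives used DESeq2 1.42.0 and limma 3.58.1, the latter on log2 of FPKM plus 1 or 0.1 (mean above 0.1) and of Cuffnorm values plus 1. In simulated counts with 200 changed genes among 15040, edgeR recovered 44% of those changed 1.25-fold and 94% of those changed 1.5-fold, with 11 false calls, where DESeq2 made 30 and limma-voom 14. The changed genes had a mean of at least 5 CPM, and each gene was drawn independently. Variation shared between genes was not simulated, so these rates may not hold for the measured libraries. Genes named are all members, up to 3 per list with the smallest p, and the 3 most like each tested member, leaving out predicted genes; values of some named by this rule are not reported here. The 3 counts behind the CPM floors cover counting error only. Promoter windows were found for 4 of 5 members, and a planned comparison of protein sequences was not made.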

Additional observations from a re-analysis of the deposited data

Results flagged for a closer look

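Of 38 sets of 6 values examined (members, marker scores and receptor sums), 4 had 1 library well apart from its group, and chance flags about 1 in 20, or 1.9 of 38. The sets share libraries and so are not independent, and setting 4 beside 1.9 gives no test. None of the flagged sets concerned a receptor gene. Varenicline 6 had the lowest direct pathway score of its group, at 5.48 where the others lay between 5.91 and 6.10. It also had the lowest cholinergic interneuron score, 3.21 against 3.60 to 3.802, and the lowest oligodendrocyte score, 8.42 against 8.68 to 8.80. Among saline libraries, the oligodendrocyte markers stood highest in saline 6, with a score of 8.73 against 8.47 to 8.54. Chrm3 in varenicline 6 was 25.3 CPM, the highest of its group, and Chrm4 there was 107 CPM.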

How the results depend on the processing

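No paired analysis was possible because the labels give every library the same replicate number. The number of genes past the threshold, 0 in edgeR, was 397 with DESeq2 (2643 genes had no adjusted p), 2099 with limma-voom, 3 with limma on the Cuffnorm values and 12 with the cortical score. Leaving out a library, it ran from 0 to 1628, the highest without varenicline 6, and was 4 without varenicline 2. Leaving out each library, log2 fold changes ran from -0.13 to -0.052 for Chrm1, from -0.45 to -0.32 for Chrm2, from -0.80 to -0.56 for Chrm3, from 0.18 to 0.29 for Chrm4 and from -0.051 to 0.49 for Chrm5. Chrm1 kept its sign in 24 of 25 alternatives and had 0.0047 with the septal and pallidal score. With the cortical score and without varenicline 6, Chrm2, Chrm3 and Chrm4 had 0.084, 0.058 and -0.059, and kept their signs in the other 24 of 25. Chrm3 passed the threshold with DESeq2 (-0.69), with limma-voom (-0.78) and without varenicline 6 (-0.80), and its adjusted p ran from 0.00242 to 0.997. Chrm4 passed with limma-voom alone (0.37; adjusted p from 0.0126 to 0.997). Chrm1 and Chrm2 passed in none of 25. In the count fits Chrm5 was fitted without the filter on low counts. Chrm5 did not meet the filter of 1 CPM in 6 libraries, which gave it no value, and DESeq2 gave it no adjusted p. With a mean FPKM of 0.219 it met the filter of the FPKM fits. The cause of these shifts was not tested. Depth limits Chrm5, with at most 16 counts in a library.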
